A study of Mus musculus with 10 samples.

Results

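The insulin-like growth factor (IGF) axis was examined through 10 genes: the ligand gene Igf1, the receptor genes Igf1r, Igf2r and Ghr, and the binding protein genes Igfbp2, Igfbp3, Igfbp4, Igfbp5, Igfbp6 and Igfbp7. They were taken by gene name from the 38962 genes of the count table, and each name matched a single row. Bulk RNA of flushed, pulverized femurs was sequenced from males of the strain C57BL/6J, 5 at 2 months (young) and 5 at 22 months (aged), with 1 library per mouse. The suppliers differed, being the Jackson Laboratory for young mice and, for aged mice, the National Institute of Aging colony with further ageing in house, so supplier and age cannot be told apart. The libraries held 31788232 to 45075335 counts, and all 10 genes passed the filter on low counts among the 22088 genes tested.

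Growth hormone, made by the pituitary, binds the receptor encoded by Ghr and acts through the kinase JAK2 and the transcription factors STAT5A and STAT5B to raise Igf1 in the liver and in tissues such as bone. IGF1 promotes the growth of osteoblasts and chondrocytes through the receptor tyrosine kinase encoded by Igf1r, while the product of Igf2r carries lysosomal enzymes and removes IGF2 from the cell surface. The binding proteins hold IGFs in the circulation and in the bone matrix and are cut by proteases that release the ligand.

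In aged bone the ligand Igf1 and the binding protein genes Igfbp2 and Igfbp3 were lower, and no gene of the axis was called higher. The call of Igfbp2 was lost in 10 of the 21 other fits that tested it. Counts were compared by edgeR's quasi-likelihood test, and a gene was called at an adjusted p (Benjamini-Hochberg over all genes tested) of at most 0.05. By this rule 3 of the 10 genes were called lower, against 3.61% of all genes tested, and 0 of 10 higher, against 3.68% (7.29% in either direction). At an unadjusted p under 0.05, which 25.7% of all genes tested reached in either direction, 4 of the 10 were lower and 0 higher. DESeq2 also called 3 lower and 0 higher, and limma-voom called 2 lower and 0 higher. The study's own list, made with DESeq2 from the same mice, already holds Igf1, Igfbp2 and Igfbp3 as lower in aged bone. The median log2 fold change of the 10 genes was -0.24, and that of all genes tested was 0.01. Levels below are CPM, which are counts scaled to library size with trimmed mean of M values (TMM), and values are mean ± SD over 5 mice per group.

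The libraries were first compared by lists of cell type markers. Counts of called markers are to be read against all genes tested, of which 3.61% were called lower and 3.68% higher. The defining genes of osteoblasts took 5.01% to 8.32% of the counts in young and 1.59% to 4.23% in aged libraries, with no overlap, and 6 of 14 were called lower and 0 higher. Fibroblast and tendon markers took 0.337% to 0.442% in young and 0.0469% to 0.160% in aged libraries, also with no overlap, and 2 of 12 were lower and 1 higher. The median log2 fold change of these 12 genes was -0.42, so their summed share can rest on a few abundant genes. Chondrocyte markers took 0.0820% to 0.200% in young and 0.0343% to 0.0832% in aged libraries, with 6 of 11 tested lower and 0 higher. Skeletal muscle markers took 2.84% to 6.65% in young and 3.96% to 9.33% in aged libraries, and 0 of 29 tested were called (unadjusted p under 0.05, 11 higher, against 25.7% of all genes in either direction; DESeq2, 6; limma-voom, 1). B and plasma cell markers took 0.0347% to 0.0456% in young and 0.0237% to 0.0437% in aged libraries, with 5 of 11 tested lower and 1 higher. This list pools B cells and plasma cells, so it does not give the direction of either. The study's own list has Jchain and Igkc higher, and Vpreb1 and Cd79b lower, in aged bone. No marker of these lists, or of the lists for 8 further cell types, was at 0 in all libraries. In bulk RNA, fewer cells of a type and less RNA per cell cannot be told apart. The part of these cell types in the results below was not tested. Fits with a muscle or a pooled marrow marker covariate are given for some genes. Aged mouse 4 stood apart in several genes of the axis, and its library had the highest share of the noncoding RNA Gm26917 (31.0% of counts, against 14.5% to 29.8% in the other libraries). Aged mouse 3 was next, at 29.8%. A fit without Gm26917 gave log2 fold changes of -1.394 for Igfbp3, -0.015 for Igf2r and -0.549 for Igfbp6. The part of Gm26917 in the values of aged mouse 4 was not tested.

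The 2 binding protein genes that were called lower are shown by the 250 bases before a RefSeq start (GRCm38.p6, 5′ to 3′ on the strand of the gene), neither of which contains an annotated exon of the gene. The motifs searched on both strands were the TATA box (TATAAA), the CCAAT box (CCAAT), the GC box (GGGCGG) and the form read by STAT proteins (TTCNNNGAA), and a match is in capitals. The Igfbp2 window is chr1:72824230-72824479 on the plus strand and the Igfbp3 window is chr11:7213924-7214173 on the minus strand.
Igfbp2: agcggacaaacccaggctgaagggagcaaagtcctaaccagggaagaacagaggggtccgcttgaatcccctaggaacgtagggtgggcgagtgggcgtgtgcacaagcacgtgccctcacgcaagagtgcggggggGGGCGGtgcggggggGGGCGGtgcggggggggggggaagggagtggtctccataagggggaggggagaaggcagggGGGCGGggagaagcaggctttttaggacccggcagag
Igfbp3: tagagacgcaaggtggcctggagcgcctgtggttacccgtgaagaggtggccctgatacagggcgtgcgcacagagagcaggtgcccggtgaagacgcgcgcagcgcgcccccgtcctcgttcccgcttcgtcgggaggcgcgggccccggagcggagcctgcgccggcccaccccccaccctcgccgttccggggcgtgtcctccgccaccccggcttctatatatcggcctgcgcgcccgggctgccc
RefSeq lists a second start of Igfbp2, whose window (chr1:72825137-72825386) holds 65 exon bases of the gene and is not printed; it had 56.4% G and C and no match of the 4 motifs. The printed Igfbp2 window held 3 GGGCGG matches, a motif found in 32.7% of 32851 RefSeq windows of this length, and no match of the other motifs. The Igfbp3 window held no exact match of the 4 motifs, which are present in 12.4% (TATAAA), 33.8% (CCAAT), 32.7% (GGGCGG) and 7.02% (TTCNNNGAA) of the windows. Only these letters were searched. Variant forms were not counted, such as the tatatat near the end of the Igfbp3 window, so the absence of a TATA box is not shown. Both windows were rich in G and C, at 67.2% for the printed window of Igfbp2 and 73.2% for Igfbp3, where the median of all windows was 52.4%. Genes not called also had such windows, at 77.6% for Igf1r, 74% for Igfbp7 and 69.2% for both Igf2r and Igfbp4. Igfbp5 was at 58.8%, Igfbp6 at 49.6%, and the windows of Ghr at 65.6% and 52%. GGGCGG also matched in Igf1r, Igf2r, Igfbp7 and the first window of Ghr. The Igf1 window, at 52.8%, lies in annotated exon of the gene and is not printed. On chromosome 1, Igfbp2 and Igfbp5 are neighbours whose ends face each other, with 5457 bases and no other gene of the table between them, and only Igfbp2 was called lower.

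Igf1 (ENSMUSG00000020053.18, chr10:87858265-87937042, GRCm38), the ligand, was at 44.2, 39.1, 39.8, 34.9 and 29.8 CPM in young mice 1 to 5. In aged mice 1 to 5 it was at 27.7, 23.2, 18.4, 22.7 and 19.6 CPM. The highest aged mouse lay below the lowest young mouse, so the groups did not overlap. Igf1 fell from 37.5 ± 5.45 to 22.3 ± 3.62 CPM, n = 5 per age, which is 1.68-fold lower (log2 ratio of aged to young -0.75 with standard error, SE, 0.13, adjusted p = 0.00499 by edgeR). When muscle marker level entered the model as a covariate, the log2 fold change was -0.74 (edgeR adjusted p = 0.0121). With the level of marrow cell markers it was -0.72 (edgeR adjusted p = 0.00879). The marrow covariate was a single mean over the red cell precursor, neutrophil and B and plasma cell markers. The median log2 fold changes of these lists were -0.49, 0.32 and -0.54, so it cannot stand for any single cell type. No fit used the osteoblast or the fibroblast and tendon markers, so their part was not tested. The antisense gene Igf1os overlaps the span of Igf1 without sharing exon bases and held 10 to 41 counts per library, against 485 to 1723 for Igf1.

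**Figure D1:**
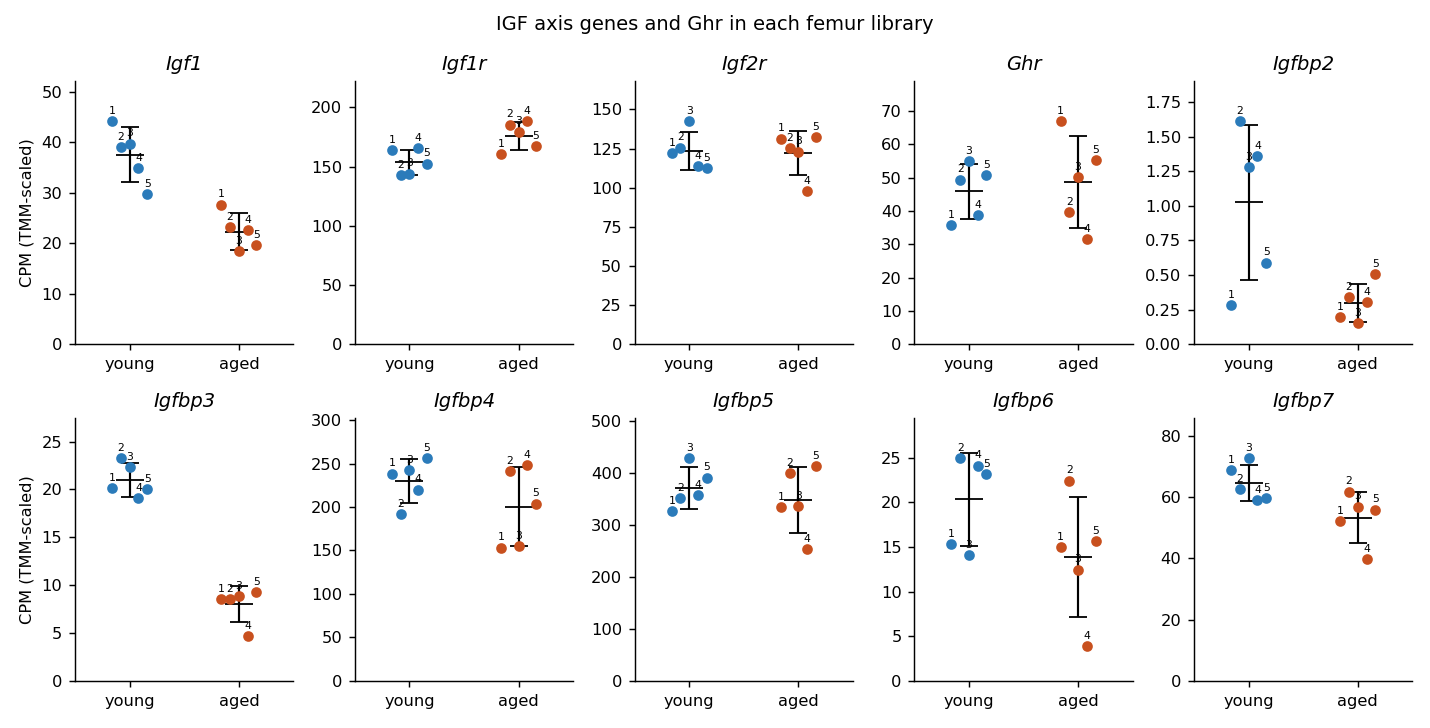
CPM (linear axis from 0) of each of the 10 genes in the 5 young (blue) and 5 aged (orange) libraries, with the mouse number beside each point and a black mean ± SD. Igf1 and Igfbp3 are separated by age without overlap, while the other 8 genes overlap.

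Igf1r, the receptor through which IGF1 signals, was not called. Its CPM were 164, 143, 144, 165 and 153 in young and 161, 185, 179.5, 188 and 167 in aged mice. In 4 of 5 aged mice the level lay above the highest young mouse (group means 154 ± 10.6 and 176 ± 11.9 CPM; log2 fold change of 0.20, 95% interval -0.00178 to 0.396, edgeR adjusted p = 0.199). With scaling by total counts alone the log2 fold change was 0.03, and under that scaling the median over all genes was -0.16 in place of 0.01.

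Igf2r, the receptor that clears IGF2, was at 123 ± 12.1 CPM in young and 122 ± 14.1 CPM in aged bone (SD, n = 5). The log2 fold change was -0.01 with a 95% interval of -0.25 to 0.22 (edgeR adjusted p = 0.946). Aged mouse 4 was the lowest library at 97.7 CPM, and the other aged mice lay between 123 and 132 CPM. The antisense RNA gene Airn overlaps Igf2r without shared exon bases and held 553 to 1040 counts, against 3241 to 6306 for Igf2r.

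Ghr, the growth hormone receptor, was at 35.7, 49.4, 55.0, 38.8 and 50.7 CPM in young mice. In aged mice it was at 66.9, 39.6, 50.1, 31.5 and 55.2 CPM. The groups overlapped widely, and the aged group held both the highest and the lowest library. The means were 45.9 ± 8.25 and 48.7 ± 13.7 CPM (log2 fold change of 0.08, 95% interval -0.32 to 0.49, edgeR adjusted p = 0.809). Within each age, the mice with the lowest muscle marker shares also had the lowest Ghr. They were young mice 4 and 1 (2.84% and 3.52% of counts) and aged mice 4 and 2 (3.96% and 6.23%). At the other end the order differed. Muscle shares were highest in young mouse 5 (6.65%) and aged mouse 3 (9.33%), but Ghr was highest in young mouse 3 and aged mouse 1. These mice were compared after the values were seen, and the part of muscle in Ghr was not tested. In the fit with the muscle covariate the log2 fold change of Ghr was -0.30 (edgeR adjusted p = 0.241).

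Igfbp3 (ENSMUSG00000020427.11, chr11:7206086-7213923), which carries most circulating IGF1 in a complex with the acid-labile subunit, showed the smallest p of the 10 genes. Its CPM were 20.1, 23.3, 22.4, 19.1 and 20.0 in young mice and 8.53, 8.54, 8.88, 4.69 and 9.31 in aged mice. All 5 aged mice lay below all young mice, with aged mouse 4 below the other aged mice. Igfbp3 fell from 21.0 ± 1.76 to 7.99 ± 1.87 CPM, n = 5 per age, which is 2.63-fold lower (log2 ratio -1.39 with SE 0.16, adjusted p = 0.000333 by edgeR). Without aged mouse 4 the log2 fold change was -1.25 (edgeR adjusted p = 2.1e-05), and in the fit with the muscle covariate it was -1.65 (edgeR adjusted p = 0.000123). Igf1 and Igfbp3 were the 2 of the 10 genes whose age groups did not overlap, both lower, against 4.12% of all genes tested that were separated and lower and 3.68% that were separated and higher (7.8% in all).

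Igfbp2 (ENSMUSG00000039323.18, chr1:72824503-72852474), another secreted carrier of IGFs, was the least abundant of the 10 genes. It had 11, 64, 37, 65 and 25 counts in young mice and 7, 17, 4, 13 and 20 counts in aged mice. These correspond to 0.282, 1.61, 1.28, 1.36 and 0.590 CPM in young and 0.196, 0.338, 0.152, 0.305 and 0.506 CPM in aged bone. Young mouse 1 lay within the aged range, and the other 4 young mice lay above it. Igfbp2 fell from 1.02 ± 0.562 to 0.299 ± 0.139 CPM, which is 3.31-fold lower (log2 ratio -1.73 with SE 0.45, adjusted p = 0.0341 by edgeR). The call ended with limma-voom (-1.54, adjusted p = 0.0933), with the muscle covariate (-1.56, edgeR adjusted p = 0.0931) and the marrow covariate (-1.59, edgeR adjusted p = 0.0606). It also ended without young 2, 3 or 4 or aged 1, 2, 3 or 4, with edgeR adjusted p of up to 0.101.

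The other 4 binding protein genes were not called. Igfbp5, which encodes an IGF carrier stored in bone matrix, was at 326, 352, 429, 357 and 391 CPM in young and 334, 399.6, 336, 254 and 414 CPM in aged mice (means of 371 ± 39.9 and 347 ± 63.6; log2 fold change of -0.10, 95% interval -0.39 to 0.20, edgeR adjusted p = 0.700). Igfbp4, whose product is cut by the protease PAPP-A, was at 239, 192, 243, 220.1 and 257 CPM in young and 153, 240.97, 155, 248 and 204 CPM in aged mice (log2 fold change of -0.20, 95% interval -0.52 to 0.12, edgeR adjusted p = 0.426). Aged mice 1 and 3 lay below every young mouse for Igfbp4, and the other 3 aged mice lay within the young range.

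Igfbp7, a relative that binds IGFs weakly, was at 68.8, 62.6, 72.8, 59.1 and 59.7 CPM in young and 52.2, 61.8, 56.9, 39.7 and 55.9 CPM in aged mice. In 4 of 5 aged mice it lay below the lowest young mouse (means of 64.6 ± 5.98 and 53.3 ± 8.37; log2 fold change of -0.28, 95% interval -0.53 to -0.02, edgeR adjusted p = 0.160, unadjusted p = 0.0347). Igfbp7 shares 85 exon bases with Polr2b on the opposite strand, and the sources used here do not state whether strand was used in counting. Igfbp6, whose product prefers IGF2, varied most relative to its mean among these 4 genes, from 14.04 to 24.96 CPM in young mice and from 3.91 to 22.4 CPM in aged mice (log2 fold change of -0.55, 95% interval -1.33 to 0.23, edgeR adjusted p = 0.356). Without aged mouse 4, which gave the lowest value, the log2 fold change of Igfbp6 was -0.31 (edgeR adjusted p = 0.400). The coefficient of variation of Igfbp6 was 25.7% in young and 48.1% in aged mice, and that of Igf1r was 6.92% and 6.72%.

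**Figure D2:**
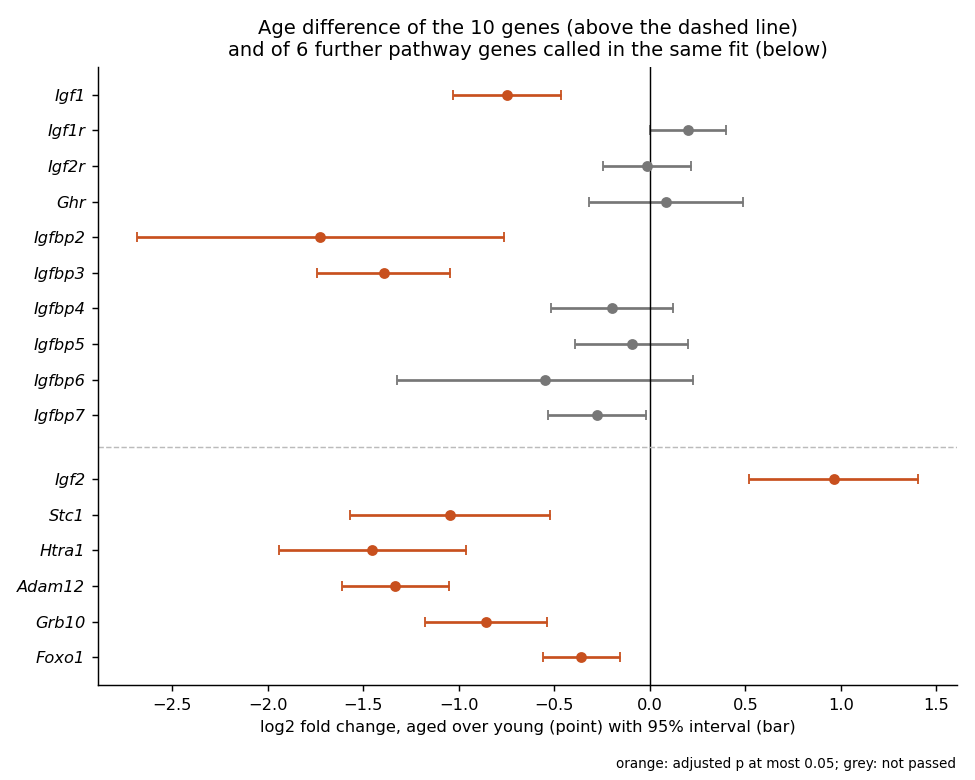
Log2 fold change of aged over young bone (points) with 95% intervals (bars) for the 10 genes, above the dashed line, and for the 6 other pathway genes called in the same fit, below it. Orange marks an adjusted p of at most 0.05; Igf1, Igfbp2 and Igfbp3 lie below 0, and Igf2 is the only called gene above 0.

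Levels of different genes were compared as CPM per kb of exon length. In young bone Igfbp5 (61.8 ± 6.64 CPM per kb), Igfbp7 (53.4 ± 4.95) and Igfbp4 (52.1 ± 5.63) were highest, and these neighbours overlapped in range. Igfbp6 (18.3 ± 4.69) and Igf2r (13.2 ± 1.29) came next and overlapped. They were followed by Igf1r (9.16 ± 0.633) and Igfbp3 (6.71 ± 0.561), each separate from its neighbours, and by Ghr (5.07 ± 0.911) and Igf1 (3.79 ± 0.550), which overlapped. Igfbp2 was lowest at 0.555 ± 0.304 CPM per kb. In aged bone Igfbp3 (2.55 ± 0.599 CPM per kb) stood below Ghr (5.38 ± 1.52) and overlapped with Igf1 (2.25 ± 0.365), whereas in young bone the range of Igfbp3 lay above that of Ghr.

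The proportions of the transcripts within a library were described with no test. Of the counts per kb of the 6 binding protein genes, Igfbp3 made up 3.20% to 4.03% in young and 1.10% to 1.86% in aged mice, with no overlap. Igfbp5 made up 29.3% to 34.5% in young and 31.0% to 38.6% in aged mice, and Igfbp7 24.7% to 30.7% and 24.02% to 30.9%. Aged mouse 4 had the highest share of Igfbp4 (41.2%) and the lowest share of Igfbp6 (2.58%) of the 10 libraries. The sum of the 6 genes was 193 ± 10.2 CPM per kb in young and 163 ± 23.9 CPM per kb in aged bone (SD, n = 5), with overlapping ranges of 185 to 207 and 137 to 195. The ratio of Igf1 to Igf1r counts per kb was 0.331 to 0.468 in young and 0.174 to 0.292 in aged mice, with no overlap. The ratio of Igf1r to Igf2r was 0.561 to 0.806 and 0.679 to 1.07, with overlap.

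**Figure D3:**
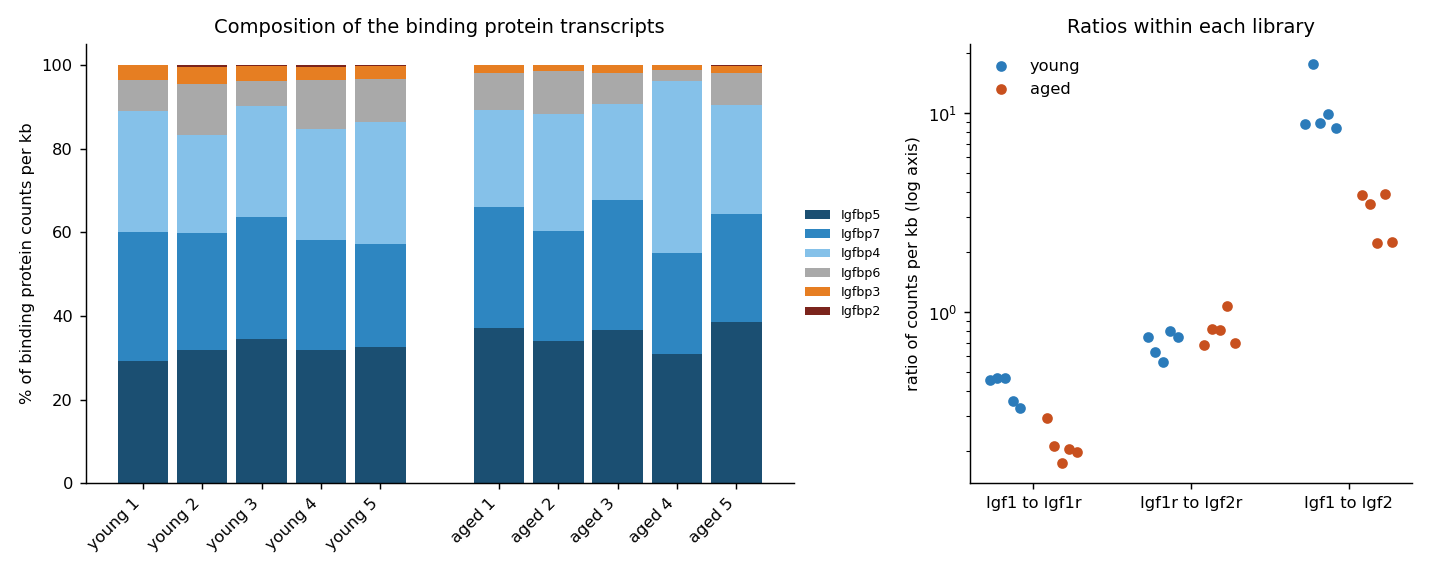
Left, share of each binding protein gene in the summed counts per kb of the 6 genes (%, stacked bars from 0) in each library. Right, ratios of counts per kb (log axis) in the young (blue) and aged (orange) libraries; Igf1 to Igf1r and Igf1 to Igf2 are lower in all aged than in all young libraries, and Igf1r to Igf2r overlaps.

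Further genes of the pathway were read from lists of ligands and carriers, binding protein proteases, growth hormone receptor signalling, insulin receptors and adaptors, the PI3K-AKT-mTOR-FOXO branch and IGF2 mRNA-binding proteins. Of 60 genes tested, 1 was called higher, 5 were called lower and 54 did not pass, with a median log2 fold change of -0.01, where 3.68% of all genes tested were called higher and 3.61% lower. The counts at an unadjusted p under 0.05 below are to be read against the 25.7% of all genes tested. Among ligands and carriers, Igf2, the second IGF ligand, was at 2.90, 1.28, 2.60, 2.05 and 2.05 CPM in young and 4.14, 3.84, 4.78, 3.35 and 5.06 CPM in aged mice. All aged mice lay above all young mice, and Igf2 rose 1.95-fold (log2 ratio 0.96 with SE 0.21, adjusted p = 0.0146 by edgeR). This call ended with the muscle covariate (log2 ratio 0.81, adjusted p = 0.0606 by edgeR). The ratio of Igf1 to Igf2 counts per kb, a ratio chosen after its values were seen, was 8.39 to 17.6 in young and 2.22 to 3.91 in aged mice. Igfals, the acid-labile subunit of the circulating complex, was at 1.86 ± 0.378 and 1.57 ± 0.397 CPM (edgeR adjusted p = 0.513).

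Of 7 genes for proteases of the binding proteins and their inhibitors, 3 were lower and 0 higher (at an unadjusted p under 0.05, 5 lower and 0 higher; DESeq2, 4 lower and 0 higher; limma-voom, 3 lower and 0 higher). Adam12, a membrane protease that can cut IGFBP3 and IGFBP5, was at 77.4, 68.5, 89.0, 69.7 and 63.1 CPM in young and 27.3, 26.1, 25.1, 29.7 and 37.7 CPM in aged mice. It fell 2.52-fold, with no overlap between the ages (log2 ratio -1.33 with SE 0.13, adjusted p = 0.000139 by edgeR). Htra1, a secreted protease that can cut IGFBP5, was at 50.1 to 65.8 CPM in young and 10.1 to 28.8 CPM in aged mice and fell 2.74-fold (log2 ratio -1.45 with SE 0.22, adjusted p = 0.00349 by edgeR). Stc1, an inhibitor of PAPP-A, fell from 1.599 ± 0.256 to 0.766 ± 0.263 CPM (log2 ratio -1.05 with SE 0.24, adjusted p = 0.0215 by edgeR), a call that ended with the muscle covariate (edgeR adjusted p = 0.0505) and without young mouse 2 (edgeR adjusted p = 0.0693). Pappa, the gene of PAPP-A, showed a log2 ratio of -0.37 (adjusted p = 0.0559 by edgeR) and Pappa2, of its relative, -0.73 (adjusted p = 0.118 by edgeR). The rest of the list was Stc2, at -0.12 (adjusted p = 0.775 by edgeR), and Ctsd, at 0.21 (adjusted p = 0.330 by edgeR).

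Of 13 genes of growth hormone receptor signalling, 0 were called in either direction by edgeR (3 higher and 0 lower at an unadjusted p under 0.05; DESeq2, 2 higher and 0 lower; limma-voom, 0 and 0). The smallest p was that of Stat3, a transcription factor activated by many cytokine receptors, with 94.7 to 106 CPM in young and 112 to 129 CPM in aged mice (log2 ratio 0.27 with SE 0.08, adjusted p = 0.0655 by edgeR). The kinase gene Jak2 had a log2 fold change of -0.05, the transcription factor genes Stat5a and Stat5b 0.15 and 0.19, and Socs2, a feedback inhibitor of growth hormone signalling, 0.18 (edgeR adjusted p = 0.763, 0.401, 0.406 and 0.443). These 4 genes were picked from the list for their roles after the values were known.

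Of 12 tested insulin receptor and adaptor genes, 1 was lower and 0 higher (unadjusted p under 0.05, 3 higher and 1 lower; DESeq2, 1 and 1; limma-voom, 0 and 1). It was Grb10, an adaptor that restrains insulin and IGF1 receptors, which fell from 62.5 ± 7.66 to 34.5 ± 7.90 CPM, with no overlap (log2 ratio -0.86 with SE 0.15, adjusted p = 0.00457 by edgeR). Insrr, on the same list, did not pass the filter on low counts and was not tested. It was at 0.101 to 0.277 CPM in young and 0.196 to 1.45 CPM in aged mice, and the study lists it among its genes higher in aged bone. Of 24 genes of the PI3K-AKT-mTOR-FOXO branch, 1 was lower and 0 higher (unadjusted p under 0.05, 3 higher and 1 lower; DESeq2, 1 and 1; limma-voom, 0 and 1). It was Foxo1, a transcription factor held out of the nucleus by AKT, which fell from 37.5 ± 2.17 to 29.2 ± 2.86 CPM (log2 ratio -0.36 with SE 0.09, adjusted p = 0.0353 by edgeR). The call of Foxo1 ended in 12 of 22 other fits, with the muscle covariate (edgeR adjusted p = 0.0550), the marrow covariate (0.0507) and the replicate block (0.0590) among them, and when any library other than young 5 or aged 1 was left out. Of the 2 tested IGF2 mRNA-binding protein genes 0 were called (unadjusted p under 0.05, 2 lower; DESeq2, 1; limma-voom, 0), and Igf2bp2 had the smaller p (log2 ratio -0.63, adjusted p = 0.0832 by edgeR).

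The genes whose profile over the 10 libraries lay nearest were found by the root-mean-square distance of log2 CPM centred on each gene's mean, among 17042 other genes of at least 1 CPM. This is a description and includes the age difference itself. Nearest to Igfbp3 were Col8a2, a chain of type VIII collagen, Mmp2, a matrix metalloproteinase, and Htra1, at distances of 0.194, 0.204 and 0.210, where the median gene was at 0.794. Nearest to Igf1 were Spib, a transcription factor of B and dendritic cells, Stambpl1, a deubiquitinase, and Tifa, an adaptor of innate immune signalling, at 0.162, 0.165 and 0.166 against a median of 0.487. Nearest to Ghr were the nuclear receptor gene Rora, Gm34934 and the BMP receptor gene Bmpr1a (0.103, 0.103 and 0.105, against 0.407), nearest to Igf1r Slc16a6, Arhgef18 and Rcsd1 (0.0427, 0.0527 and 0.0552, against 0.282), and nearest to Igfbp5 Tgm2, Elob and Ddx59 (0.0778, 0.0788 and 0.0952, against 0.324).

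**Figure D4:**
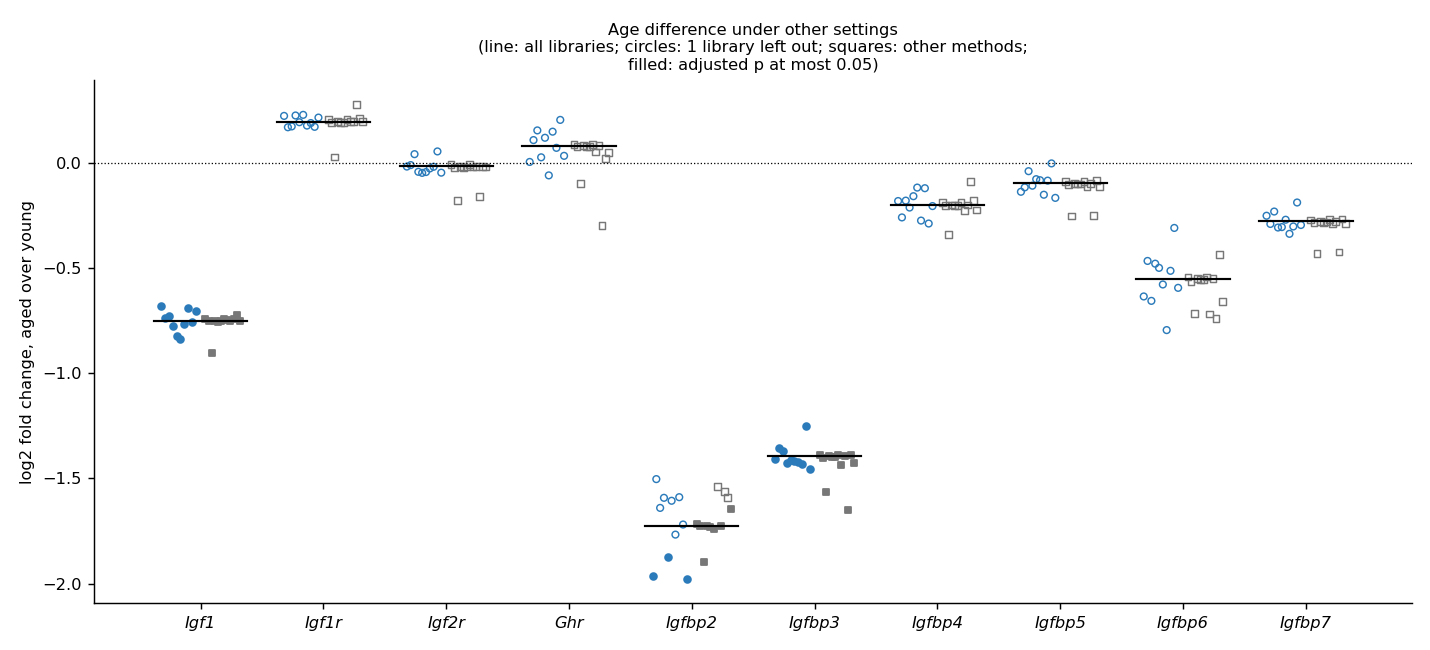
Log2 fold change of aged over young bone for each of the 10 genes with all libraries (line), with 1 library left out (circles) and with the other scalings, filters, tests, covariates and the replicate block (squares); filled symbols have an adjusted p of at most 0.05. Igf1 and Igfbp3 are filled in all fits shown, Igfbp2 in 11 of 21, and the other 7 genes in none.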

How the data were processed

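RNA of flushed femurs was sequenced as 1 library per mouse, in 5 young and 5 aged mice, and all 10 columns were used. The authors deposited read counts by gene. Per the study's methods these were made with Cutadapt 2.10, STAR 2.7.8a on GRCm38.p6 and featureCounts 2.0.2. The labels name a human genome build, whereas the identifiers are mouse; 38842 of 38962 are in GENCODE vM21, and all 10 genes have the same span there. The deposited length of each gene, in bases, was used for CPM per kb.

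The fits were run with edgeR 4.0.16 in R 4.3.3 (filter with minimum count 10 and minimum total 15, TMM, robust quasi-likelihood fit, Benjamini-Hochberg over all tested genes), with DESeq2 1.42.0 and limma 3.58.1 as alternatives. Standard errors were recovered from the F statistic (absolute log2 fold change over its square root), and 95% intervals use the t distribution. A prior count of 2 was added for distances on the log2 CPM scale. The median standard error was 0.178. The fits were tested on simulated counts before use. Figures were made with Python 3.11.15 and matplotlib 3.10.9.

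The 10 genes and the lists were chosen with earlier results of these data known. Named are the 10 genes, the called gene of each pathway list or otherwise its smallest p, and the 3 nearest profiles. Genes outside this rule, named for their role, are Igfals, Pappa, Pappa2, Jak2, Stat5a, Stat5b, Socs2, and the overlapping Igf1os, Airn and Polr2b. Stc2 and Ctsd complete the list of proteases and inhibitors. Insrr, which was not tested, and Jchain, Igkc, Vpreb1 and Cd79b are cited from the study's own list. That list also holds Igf1, Igfbp2, Igfbp3, Stc1, Htra1, Adam12 and Grb10 as lower and Igf2 as higher in aged bone. It comes from the same mice, so it is no independent support for these calls. Correlations of same-numbered deviations ran from -0.154 to 0.169, and the main fit did not pair libraries by replicate number. Such correlations cannot exclude an order or batch shared by number, and a fit with the replicate block is given below. Promoter windows come from RefSeq.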

Additional observations from a re-analysis of the deposited data

Results flagged for a closer look

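The 18 genes named by the rule, each read in both ages, gave 36 groups. Of these, 2 held a value far from the others by Dixon's criterion (gap over range above 0.71 for 5 mice), and chance gives about 1 in 20 groups. Both belong to aged mouse 4. Its Igfbp3 was at 4.69 CPM, where the other aged mice had 8.53 to 9.31 CPM (gap over range of 0.830). Its Igf2r was at 97.7 CPM, where the other aged mice had 123 to 132 CPM (gap over range of 0.733). Without it the log2 fold change was -1.25 for Igfbp3 and 0.06 for Igf2r (edgeR adjusted p = 2.1e-05 and 0.774). Among aged mice, aged mouse 4 had the lowest shares of muscle (3.96%), fibroblast and tendon (0.0469%), osteocyte (0.0226%), adipocyte (0.0404%) and red cell precursor markers (0.368%). It had the highest shares of macrophage (0.0628%) and endothelium markers (0.0952%). In the other marker lists it was neither the lowest nor the highest aged mouse. With 5 aged mice, any of them can be at an end of several lists by chance. The part of these cell types in the values of aged mouse 4 was not tested.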

How the results depend on the processing

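Igf1 and Igfbp3 stayed called lower in all 22 alternatives, with log2 fold changes of -0.90 to -0.68 and -1.65 to -1.25. Igfbp2 was lower in all 21 fits that tested it, but was not called in 10, at -1.54 with limma-voom, -1.56 with the muscle covariate, -1.59 with the marrow covariate and in 7 fits that left out 1 library (-1.767 to -1.503). Over all fits that left out 1 library it ran from -1.979 to -1.503. It did not pass the filter of CPM above 1 in 5 libraries. The 7 other genes were called in no alternative; the sign of Ghr turned in 3 and that of Igf2r in 2. Over all genes, 812 were called higher and 798 lower. These counts were 1545 and 1283 with DESeq2, 285 higher and 917 lower with total counts alone (23.7% higher, against 50.4%), and, leaving out 1 library, 300 to 856 higher and 386 to 830 lower. Without young 2 they were 300 and 386, without young 4, 366 and 448, and without aged 3, 470 and 479. The causes were not tested. The replicate block gave 957 higher and 675 lower (58.6% higher), and of the genes named it ended the call of Foxo1 alone. Without division by gene length the mean difference, aged minus young, was -0.118 for the ratio of Igf1 to Igf1r (-0.199 with it) and -13.1 for Igf1 to Igf2 (-7.55 with it). The difference in mean Igfbp4 share, aged minus young, was 1.27 percentage points, -1.97 without aged mouse 4 and -0.159 without division by length. Igfbp2 had the lowest counts of the 10 genes, 4 to 65 per library, and a coefficient of variation of 54.8% in young mice; the part of depth in its lost calls was not tested.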
